A study of Mus musculus with 12 samples.

Results

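The 10 genes described here encode proteins that mark epithelial cells: the keratins Krt7, Krt8, Krt18 and Krt19, the adhesion molecules Epcam and Cdh1 (E-cadherin), the claudins Cldn3, Cldn4 and Cldn7, and occludin (Ocln). They were picked by name from the array rows that carry a single gene symbol, and where a gene had several rows, the one with the highest mean over the 12 arrays was used. All 10 had a row, out of 22180 genes. The arrays measured mouse colorectal cancer tissue from tumours injected into the liver, with 4 groups of 3 mice per the series' design text: fatty liver under Anti-VEGF, fatty liver under vehicle, healthy liver under Anti-VEGF and healthy liver under vehicle. Anti-VEGF is an agent against vascular endothelial growth factor, given to block vessel growth. The labels used here name neither the tumour cell line, the sex or age of the mice nor the way the fatty liver was produced.

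Epithelial cells hold together through junctions and an inner scaffold of keratin filaments. Keratin 8 pairs with keratin 18 in simple epithelia, and hepatocytes carry this pair, while keratins 7 and 19 are found in bile duct cells and keratin 19 in intestinal lining. E-cadherin binds neighbouring cells to each other at adherens junctions, EpCAM is a surface adhesion molecule of most simple epithelia, and claudins and occludin are the membrane proteins of tight junctions. In colorectal tumours these genes are used to follow tumour cell content and differentiation. E-cadherin is not restricted to epithelium: in mouse it is also made by Langerhans cells, a dendritic cell type of the skin.

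A gene was tested when its value exceeded 4.93, the median of all values in the table, on at least 3 arrays. Values are log2 expression as deposited, so a difference of 1 is a doubling. Of the 10 genes 5 were tested, Krt8, Krt18, Ocln, Cdh1 and Cldn3, and these lay above that limit on all 12 arrays. The other 5 were not. Epcam stayed between 3.24 and 3.78, Krt19 at 4.38 or less, Cldn7 between 3.53 and 4.05 and Cldn4 between 4.32 and 4.84, below the limit on every array. Krt7 ranged from 4.58 to 5.11 and passed the limit on 2 arrays, both from healthy liver. Fitted without the filter, none of these 5 reached an adjusted p of 0.05 in limma in any comparison, and the lowest adjusted p was 0.18, for Epcam between livers under vehicle (log2 difference 0.26, SE 0.13). The unadjusted p was above 0.05 for these 5 in every comparison as well.

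**Figure D1:**
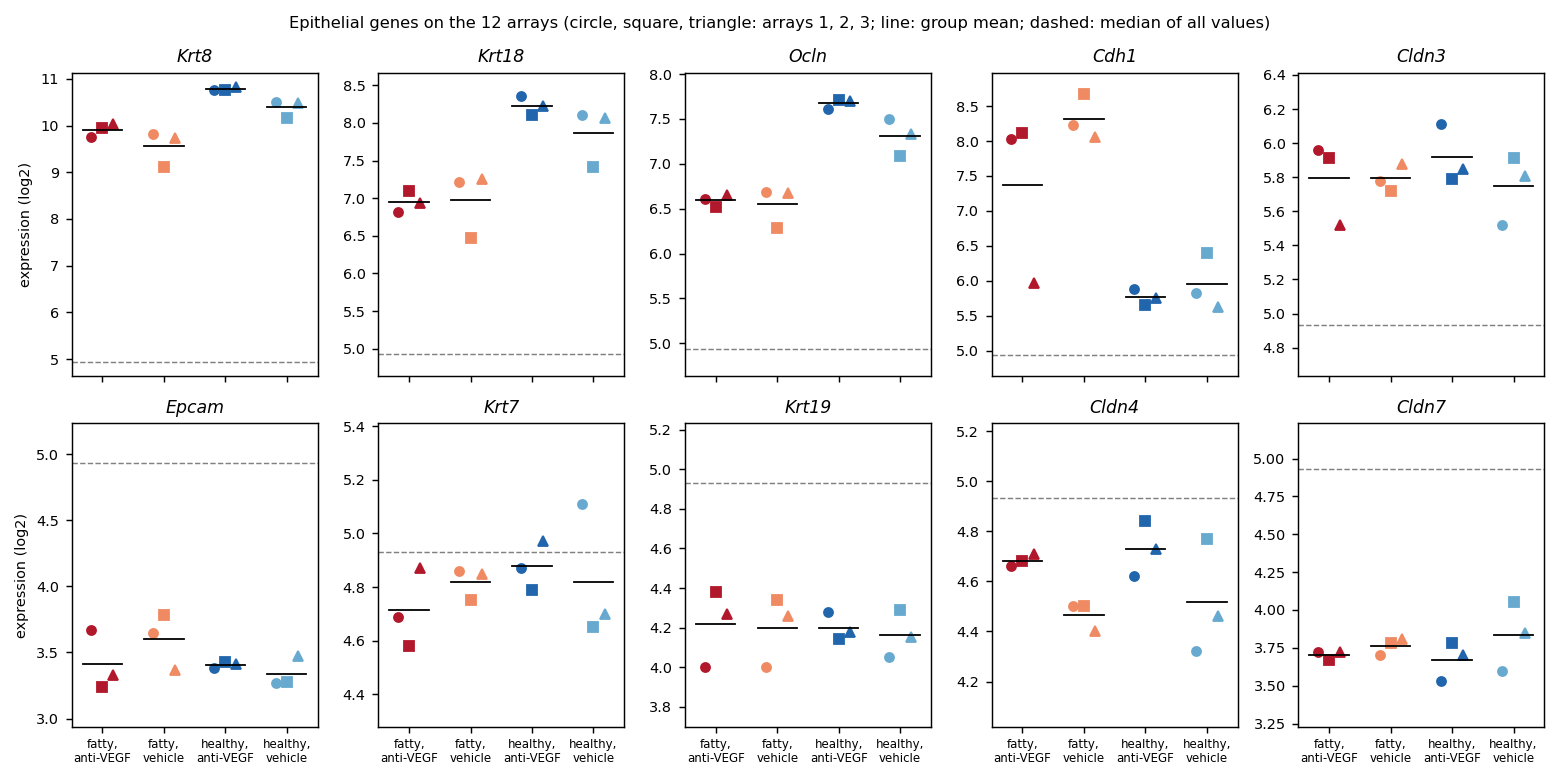
Expression (log2) of the 10 epithelial genes on each array by group. Circles, squares and triangles are arrays 1, 2 and 3, the black line is the group mean and the dashed line the limit of 4.93; Krt8, Krt18 and Ocln are lower on every fatty liver array, Cdh1 is high on 5 of the 6 fatty liver arrays, and Epcam, Krt19, Cldn4 and Cldn7 lie under the limit throughout.

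Most genes listed for intestinal epithelium were also near or below the limit in this tissue labelled colorectal cancer. Of the 12 genes listed for it, 11 had a row and 5 were tested, of which 2 fell in fatty liver under Anti-VEGF and 1 under vehicle. Of all tested genes 27.6% and 30.4% fell in these comparisons. Cdhr5, a cadherin of the intestinal brush border, fell under both, by 0.86 (SE 0.19) and 0.68 (SE 0.19), and read 4.67 to 5.28 in fatty liver and 5.24 to 6.09 in healthy liver. Under vehicle its call was lost without vehicle array 1 or 3 of healthy liver or 2 of fatty liver, and with nearly alike arrays averaged neither call held (limma adjusted p = 0.139 and 0.116). Lgals4, a galectin of the gut lining, was above the limit on all 12 arrays and did not pass. The list mean was at most 4.64 in fatty liver and at most 4.72 in healthy liver. Cdx2, an intestinal transcription factor, ranged from 4.66 to 5.16, and Cdx1, Vil1, Cdh17 and Lgr5 did not exceed the limit on any array. Vim, which encodes the mesenchymal filament protein vimentin and is also made by stromal and immune cells, ranged from 12.99 to 13.12.

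Some arrays were nearly alike within their group, which bears on every p-value here. Over the 13286 tested genes, array-to-array differences had an SD of 0.148 to 0.163 among the 3 Anti-VEGF arrays of healthy liver and between vehicle arrays 1 and 3 of each liver, against 0.391 to 0.636 for the other pairs of a group. Anti-VEGF array 3 of fatty liver and vehicle array 2 of each liver stood apart from their groups, and Xist was at 8.10 or more on vehicle arrays 1 and 3 of both livers and at most 4.32 elsewhere. Each array was counted as labelled, and results are also given with the nearly alike arrays averaged. The labels call the replicates biological and do not say which array came from which mouse, so p-values measure the spread between these arrays.

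The keratin pair and occludin were lower in tumours of fatty liver than in those of healthy liver under both treatments. Krt8 fell by 0.87 on the log2 scale under Anti-VEGF and by 0.84 under vehicle, Krt18 by 1.28 and 0.88, and Ocln by 1.08 and 0.75. On all 6 fatty liver arrays each of the 3 genes was below all 6 healthy liver arrays. Cdh1 went the other way, higher by 1.61 under Anti-VEGF and by 2.37 under vehicle. Cldn3 did not pass in either comparison. In all, 1 of the 5 tested genes rose and 3 fell under each treatment. Among all 13286 genes, 45.8% passed under Anti-VEGF and 49.6% under vehicle: 18.2% were higher and 27.6% lower in fatty liver under Anti-VEGF, and 19.2% were higher and 30.4% lower under vehicle, so between livers a call was common. Passing under both treatments were 21.9% of all genes as lower, like Krt8, Krt18 and Ocln, and 15.7% as higher, like Cdh1. The median log2 difference of the 5 was -0.87 under Anti-VEGF and -0.75 under vehicle, beside -0.13 and -0.12 over all tested genes. These medians of all genes were not subtracted.

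Krt8 and Krt18 are neighbours on mouse chromosome 15, and Ocln lies on chromosome 13. Because the 3 genes moved together, the 250 bases before their starts are shown, read from the RefSeq promoter table (GRCm38.p6), 5′ to 3′, with capitals marking the E-box CACCTG or CAGGTG, a motif that repressors of the Snail and ZEB families can bind. The Krt8 window is chr15:102004343-102004592 on the minus strand, the Krt18 window chr15:102027966-102028215 on the plus strand and the Ocln window chr13:100552499-100552748 on the minus strand.
Krt8: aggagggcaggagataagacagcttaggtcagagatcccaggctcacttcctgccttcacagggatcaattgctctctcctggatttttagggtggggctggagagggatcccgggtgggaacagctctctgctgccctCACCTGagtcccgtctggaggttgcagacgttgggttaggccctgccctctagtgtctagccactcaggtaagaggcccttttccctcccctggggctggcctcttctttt
Krt18: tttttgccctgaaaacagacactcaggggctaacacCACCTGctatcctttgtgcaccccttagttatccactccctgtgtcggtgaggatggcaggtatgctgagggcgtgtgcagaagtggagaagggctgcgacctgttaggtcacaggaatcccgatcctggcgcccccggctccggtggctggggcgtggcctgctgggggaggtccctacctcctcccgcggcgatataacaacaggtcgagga
Ocln: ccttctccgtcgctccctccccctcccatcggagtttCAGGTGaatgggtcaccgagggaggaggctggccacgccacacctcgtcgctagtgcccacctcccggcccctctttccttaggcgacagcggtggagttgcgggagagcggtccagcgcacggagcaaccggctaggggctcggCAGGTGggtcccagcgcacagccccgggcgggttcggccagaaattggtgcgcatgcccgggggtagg
The Krt8 window held 1 E-box, starting 111 bases before the start, the Krt18 window 1, at 214 bases, and the Ocln window 2, at 213 and 68 bases. A second Ocln start listed in the table had 0 E-boxes in its window. Among the 32851 promoter windows listed there, 17.2% held an E-box. A GC box (GGGCGG or CCGCCC), present in 32.7% of windows, was found once in each Ocln window and in neither keratin window. The AP-1 motif TGANTCA (6.75% of windows) and the TATA box TATAAA or TTTATA (12.4%) were found in none of them. Both strands were searched, matches did not overlap, and a match describes letters only. Of the 10 genes 8 have an entry there, all except Cdh1 and Krt19. E-boxes also lay in windows of Epcam, Krt7, Cldn4 and Cldn7, which did not pass without the filter, while the Cldn3 window held 0. The motif is thus not particular to the 3 genes that fell.

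Krt8 read 9.75, 9.95 and 10.04 in fatty liver under Anti-VEGF, against 10.77, 10.77 and 10.82 in healthy liver under Anti-VEGF. Under vehicle it read 9.82, 9.12 and 9.73 in fatty liver, against 10.51, 10.17 and 10.49 in healthy liver. The fatty and healthy ranges did not overlap, and vehicle array 2 was the lowest of its group in both livers. The differences were -0.87 (SE 0.17, limma adjusted p = 0.00296) under Anti-VEGF and -0.84 (SE 0.17, adjusted p = 0.00346) under vehicle, or 1.83-fold and 1.78-fold lower.

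Krt18, the partner of keratin 8, followed the same order. It read 6.82, 7.10 and 6.93 in fatty liver under Anti-VEGF, against 8.36, 8.10 and 8.23 in healthy liver, and 7.22, 6.47 and 7.25 in fatty liver under vehicle, against 8.10, 7.41 and 8.07 in healthy liver. Again no fatty liver array reached the lowest healthy one, which was vehicle array 2. The differences were -1.28 (SE 0.23, limma adjusted p = 0.0018) and -0.88 (SE 0.23, adjusted p = 0.0105). A second Krt18 row, at 3.94 to 5.01 and so close to the limit, had means of 4.18 and 4.15 in the fatty liver groups under Anti-VEGF and vehicle, against 4.74 and 4.61 in the healthy liver groups.

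Ocln is the tight junction protein of the 3. Its values were 6.61, 6.52 and 6.65 in fatty liver under Anti-VEGF, against 7.61, 7.71 and 7.70 in healthy liver, and 6.69, 6.29 and 6.67 in fatty liver under vehicle, against 7.50, 7.09 and 7.33 in healthy liver. It fell by 1.08 (SE 0.13, limma adjusted p = 0.000155), which is 2.12-fold lower, under Anti-VEGF, and by 0.75 (SE 0.13, adjusted p = 0.00138) under vehicle. Of all tested genes 16.6% lay lower on all 6 fatty liver arrays than on any healthy liver array, as did Krt8, Krt18 and Ocln, and 31% were separate in either direction.

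The calls of these 3 genes were kept in each of the 12 fits that leave out 1 array, with Krt8 between -0.93 and -0.79 under Anti-VEGF and between -0.97 and -0.62 under vehicle. For Krt18 the ranges were -1.35 to -1.21 and -1.11 to -0.62, and for Ocln -1.11 to -1.05 and -0.86 to -0.62. With the nearly alike arrays averaged, the differences were -0.87, -1.28 and -1.08 for Krt8, Krt18 and Ocln under Anti-VEGF and -0.89, -0.90 and -0.77 under vehicle. None of the 6 then passed, with limma adjusted p-values of 0.158, 0.12 and 0.0509 under Anti-VEGF and 0.0819, 0.116 and 0.0643 under vehicle, while 510 and 721 genes of the whole table did. Without the 4 vehicle arrays high in Xist the 3 calls under Anti-VEGF were kept. Under vehicle that fit compared array 2 of each liver alone, so the spread came from the Anti-VEGF arrays. Array 2 of fatty liver read 9.12 for Krt8, 6.47 for Krt18 and 6.29 for Ocln. In healthy liver it read 10.17, 7.41 and 7.09. In bulk tissue, fewer cells that carry a transcript and less of it per cell cannot be told apart.

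**Figure D2:**
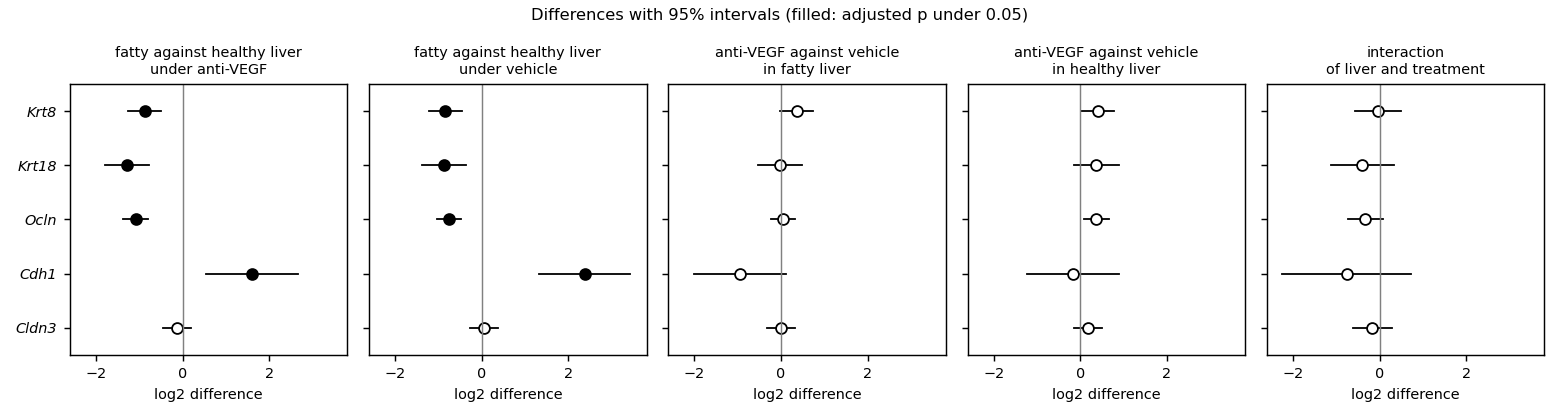
Log2 difference of the 5 tested genes in the 5 comparisons, each with its 95% interval from limma, filled where the adjusted p was under 0.05. Krt8, Krt18 and Ocln lie below 0 and Cdh1 above 0 in both comparisons of fatty against healthy liver, and no gene is filled in the comparisons of treatment or in the interaction.

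Arrays rich in stromal transcripts carried the lowest keratin values of their groups. The mean of the 7 endothelial markers was 7.32 on Anti-VEGF array 1 of fatty liver, against 6.01 and 5.97 on its other arrays, 7.65 on vehicle array 2 of fatty liver, against 6.15 and 6.06, and 8.91 on vehicle array 2 of healthy liver, against 5.30 and 5.34. The 6 fibroblast markers averaged 8.78, 8.33 and 9.88 on the same 3 arrays and between 6.75 and 7.62 on the other arrays of those groups. Krt8 was lowest of its group on each of them, at 9.75, 9.12 and 10.17, and so was Krt18, at 6.82, 6.47 and 7.41. Between livers, 1 of 6 tested fibroblast genes, Pdgfra, fell in both comparisons, and of 6 tested endothelial genes 2 rose under Anti-VEGF and 1 under vehicle. Of all tested genes 21.9% fell in both, and 18.2% rose under Anti-VEGF and 19.2% under vehicle. The endothelial mean was 5.97 to 7.32 in fatty liver under Anti-VEGF, against 5.14 to 5.23 in healthy liver. Under vehicle it was 6.06 to 7.65 against 5.30 to 8.91, so the ranges overlapped. Markers differed under Anti-VEGF: Kdr read 9.10, 8.14 and 7.69 in fatty liver, against 5.28, 5.32 and 4.96 in healthy liver. Cdh5 read 9.36, 7.41 and 7.26, against 7.35, 7.44 and 7.60, with overlap. The part of stromal content in the keratin differences was not tested.

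Within groups the 3 genes also varied together. Deviations from the group means over the 12 arrays correlated at 0.90 between Krt8 and Krt18, 0.86 between Krt8 and Ocln and 0.82 between Krt18 and Ocln (Pearson's r, a description, since all genes of an array share its RNA). Without vehicle array 2 of each liver these values were 0.74, 0.61 and 0.38 over 10 arrays, so a good part rests on those arrays. For Cdh1 and Krt8 the value was -0.52. The genes most like Krt8 over the 12 arrays were Lrp2, an endocytic receptor of the LDL receptor family (r = 0.996), Tpm1, an actin-binding tropomyosin (0.99), and Adamts8, a secreted protease (0.99). For Krt18 they were Rbm26 and Tomm20, an import receptor of mitochondria (both 0.984), and Mtx1 (0.983), and for Ocln they were Stam (0.988), Cisd3 (0.986) and Adamts14 (0.985). All are lower in fatty liver, so the difference between livers alone raises these values.

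**Figure D3:**
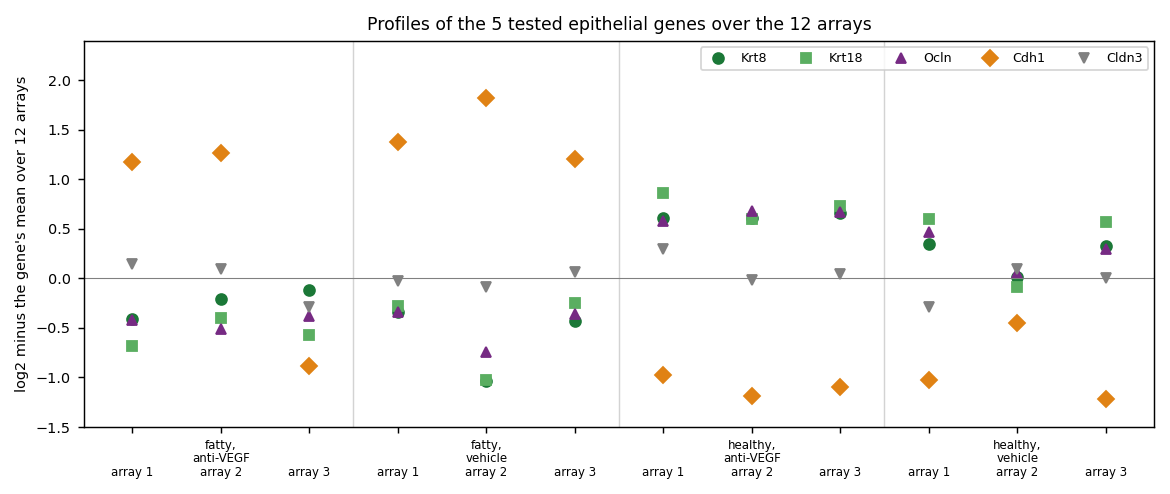
Each tested epithelial gene on the 12 arrays, as log2 expression minus the gene's own mean over the arrays. Krt8, Krt18 and Ocln lie under 0 on all fatty liver arrays and drop together on vehicle array 2 of both livers, Cdh1 is above 0 on the fatty liver arrays except Anti-VEGF array 3, and Cldn3 stays near 0.

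Cdh1 was high on 5 of the 6 fatty liver arrays. It read 8.03, 8.12 and 5.97 in fatty liver under Anti-VEGF, against 5.88, 5.66 and 5.75 in healthy liver, and 8.23, 8.67 and 8.06 in fatty liver under vehicle, against 5.82, 6.40 and 5.63 in healthy liver. Anti-VEGF array 3 of fatty liver thus lay within the healthy liver range, under vehicle array 2 of healthy liver. The difference was 1.61 (SE 0.48, limma adjusted p = 0.0202), 3.05-fold, under Anti-VEGF and 2.37 (SE 0.48, adjusted p = 0.00312), 5.17-fold, under vehicle.

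The Cdh1 call under Anti-VEGF depended on single arrays. Without Anti-VEGF array 3 of fatty liver the difference was 2.31 (adjusted p = 9.03e-05), whereas without array 1 it was 1.28 (adjusted p = 0.0787) and without array 2 it was 1.23 (adjusted p = 0.0809). It also missed the threshold without Anti-VEGF array 2 or 3 of healthy liver, at 1.56 (adjusted p = 0.059) and 1.60 (adjusted p = 0.0543). Under vehicle Cdh1 ranged from 2.20 to 2.60 over the 12 fits and passed in all of them. With nearly alike arrays averaged it was 1.61 (limma adjusted p = 0.3) and 2.35 (adjusted p = 0.0937), so neither passed. Without the 4 arrays high in Xist it was 1.61 (adjusted p = 0.0596) under Anti-VEGF and did not pass. Under vehicle it was then 2.27, with array 2 alone in each liver. A second Cdh1 row, at 3.66 to 4.16, was under the limit on every array.

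Across arrays Cdh1 tracked lymphocyte genes. The 3 genes most like it over the 12 arrays were Arap2 (r = 0.996), P2ry10, a receptor of the purinergic receptor family (0.995), and Cd3g, a chain of the T cell receptor complex (0.995), and with group means removed the values were 0.986, 0.991 and 0.992. They were picked for the highest r, so high values are no surprise. The SD of Cdh1 was 1.22 in fatty liver under Anti-VEGF and 0.11 to 0.40 in the other groups. Values with group means removed thus lean on Anti-VEGF array 3 of fatty liver, and were not computed without it. All 7 T and NK cell markers listed were above the limit on at least 3 arrays, Ncr1 and Gzma on fatty liver arrays alone, so a count of their calls is not given. Their mean was 5.59 to 8.20 in fatty liver under Anti-VEGF, 8.19 to 8.75 in fatty liver under vehicle, 4.79 to 4.93 in healthy liver under Anti-VEGF and 4.97 to 5.54 in healthy liver under vehicle. Cd3g read 8.60, 8.40 and 6.04 in fatty liver under Anti-VEGF and at most 6.18 in healthy liver, so the array with low Cdh1 was also the one with low Cd3g. Macrophage markers did not drop there: their mean over 6 genes was 11.24 on that array, 11.37 and 11.47 on the other 2 of its group, and 9.20 to 10.26 in healthy liver. The part of lymphocytes or other immune cells in the Cdh1 difference was not tested.

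**Figure D4:**
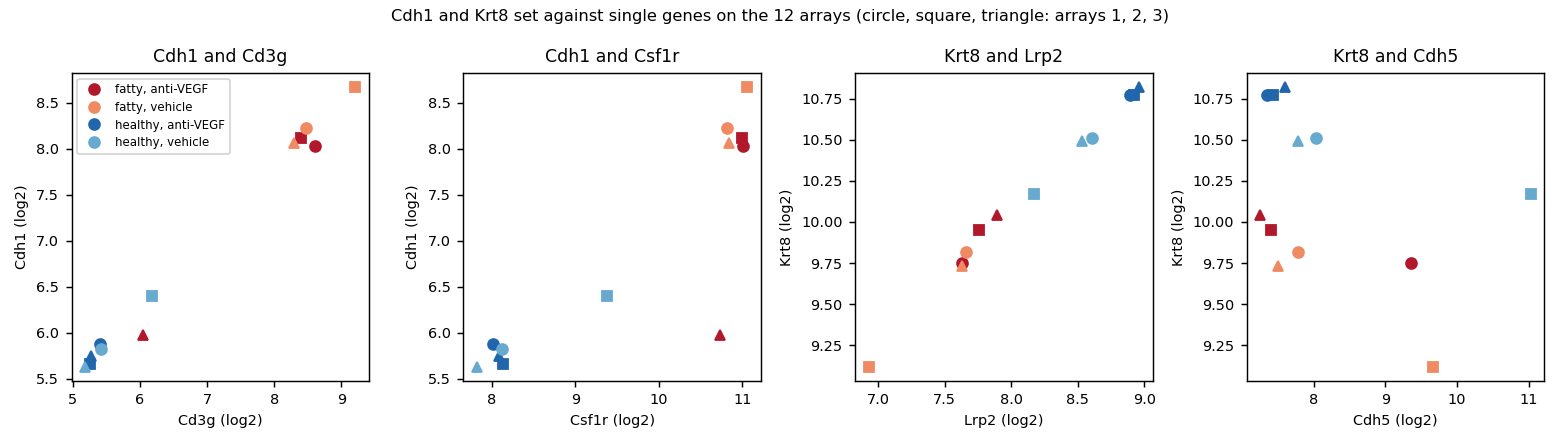
Cdh1 against Cd3g and Csf1r, a macrophage receptor, and Krt8 against Lrp2 and Cdh5, an endothelial cadherin, on the 12 arrays (log2 on both axes, 1 point an array, colour by group, shape by array number). Anti-VEGF array 3 of fatty liver is low in Cdh1 and Cd3g and high in Csf1r, and the 3 arrays with the highest Cdh5 have the lowest Krt8 of their groups.

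Cldn3 encodes a tight junction claudin of intestinal and other simple epithelia, and it was flat over the arrays. It read 5.96, 5.91 and 5.52 in fatty liver under Anti-VEGF, against 6.11, 5.79 and 5.85 in healthy liver, and 5.78, 5.72 and 5.88 in fatty liver under vehicle, against 5.52, 5.91 and 5.81 in healthy liver. All 4 groups overlapped. The differences were -0.12 (95% interval -0.44 to 0.20) and 0.05 (-0.27 to 0.37), with limma adjusted p-values of 0.518 and 0.805. The genes most like it were Atoh8 (r = 0.868), Treml1 (0.829) and Rpl17-ps9 (0.812).

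None of the 5 tested genes passed between Anti-VEGF and vehicle in the main fit, which held all 12 arrays, each weighted alike. In fatty liver 0 of 5 passed in limma, also at an unadjusted p of 0.05, and of all tested genes 0.00753%, a single gene, did. In healthy liver 0 of 5 passed in limma, beside 0% of all genes, and 2 were under an unadjusted p of 0.05. These were Ocln, with a difference of 0.37 (95% interval 0.08 to 0.65, limma adjusted p = 0.449), and Krt8, with 0.40 (0.01 to 0.78, limma adjusted p = 0.582). Krt8 was 10.77 to 10.82 on the Anti-VEGF arrays of healthy liver and 10.17 to 10.51 on the vehicle arrays, and Ocln 7.61 to 7.71 and 7.09 to 7.50. Neither overlapped, but the share of all genes that separate in this way was not counted. With array weights both passed in healthy liver, Krt8 at 0.29 (limma adjusted p = 0.0306) and Ocln at 0.26 (adjusted p = 0.0324). The weights were 2.325, 0.147 and 1.745 on vehicle arrays 1, 2 and 3 of healthy liver and 2.014 to 2.853 on its Anti-VEGF arrays. These calls thus rest mostly on the nearly alike arrays, each counted as a replicate. Without the 4 arrays high in Xist, which leaves vehicle array 2 alone in its group, Ocln was 0.59 (adjusted p = 0.0424) and Krt18 0.82 (adjusted p = 0.0383). Krt18 differed by 0.37 (-0.14 to 0.88) in healthy liver and by -0.03 (-0.54 to 0.49) in fatty liver. In fatty liver Krt8 differed by 0.36 (-0.02 to 0.74), Ocln by 0.04 (-0.24 to 0.33) and Cdh1 by -0.95 (-2.00 to 0.11, adjusted p = 0.795). For Cdh1, Anti-VEGF arrays 1 and 3 of fatty liver, at 8.03 and 5.97, lay below its lowest vehicle array, at 8.06. Cdh1 in healthy liver differed by -0.18 (-1.24 to 0.88).

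The interaction of liver and treatment, which is the Anti-VEGF difference in fatty liver minus that in healthy liver, passed for 0 of 5 genes and for 0% of all genes in limma, and 0 of 5 were under an unadjusted p of 0.05. With array weights Ocln passed (-0.39, adjusted p = 0.0347). It was -0.33 for Ocln (95% interval -0.73 to 0.08), -0.40 for Krt18 (-1.12 to 0.33), -0.04 for Krt8 (-0.57 to 0.50), -0.76 for Cdh1 (-2.26 to 0.73) and -0.17 for Cldn3 (-0.62 to 0.28). Ordered by group mean, Krt8 ran from 9.56 in fatty liver under vehicle over 9.92 in fatty liver under Anti-VEGF and 10.39 in healthy liver under vehicle to 10.79 in healthy liver under Anti-VEGF. Arrays of the lower neighbours in that order overlapped, at 9.12 to 9.82 under vehicle and 9.75 to 10.04 under Anti-VEGF in fatty liver.

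Partners of these proteins at tight junctions divided in the same 2 ways. Of 19 listed genes 12 were tested, and 3 rose and 5 fell in fatty liver under Anti-VEGF (median log2 difference -0.17), while 4 rose and 4 fell under vehicle (median -0.01). Of all tested genes 45.8% and 49.6% passed in either direction. The 4 that rose include Cldn1, which was above the limit on 5 arrays, all of fatty liver. It was tested only through the group where it is high, so its call is no support. Cldn12, another claudin, fell by 1.02 (SE 0.15) under Anti-VEGF and by 0.99 (SE 0.15) under vehicle, and Pard6b, a polarity protein, by 0.84 (SE 0.15) and 0.72 (SE 0.15). Lsr, the receptor that places tricellulin at corners between cells, rose by 2.06 (SE 0.32) and 2.41 (SE 0.32) over a healthy liver level close to the limit, or by 1.11 and 1.26 with its rows averaged. Tjp3, a scaffold protein, rose by 0.58 (SE 0.15) and 0.78 (SE 0.15). Chosen after their values were seen, Cldn1 read 6.24, 6.04 and 4.27 in fatty liver under Anti-VEGF and at most 4.89 in healthy liver, a drop on array 3 like that of Cdh1. F11r, a junctional adhesion molecule also found on endothelium, differed by 3.54 (SE 0.72, limma adjusted p = 0.00333) under Anti-VEGF. Under vehicle it read 8.40, 9.32 and 8.42 in fatty liver, against 5.70, 8.81 and 5.61 in healthy liver, a difference of 2.01 (SE 0.72, adjusted p = 0.0388) that was 3.06 (adjusted p = 0.000122) without vehicle array 2 of healthy liver and 1.46 (adjusted p = 0.146) without array 3. It also missed the threshold without any 1 of 8 other arrays. Without Anti-VEGF array 1 or 2 of fatty liver 3 of the 12 fell under Anti-VEGF.

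**Figure D5:**
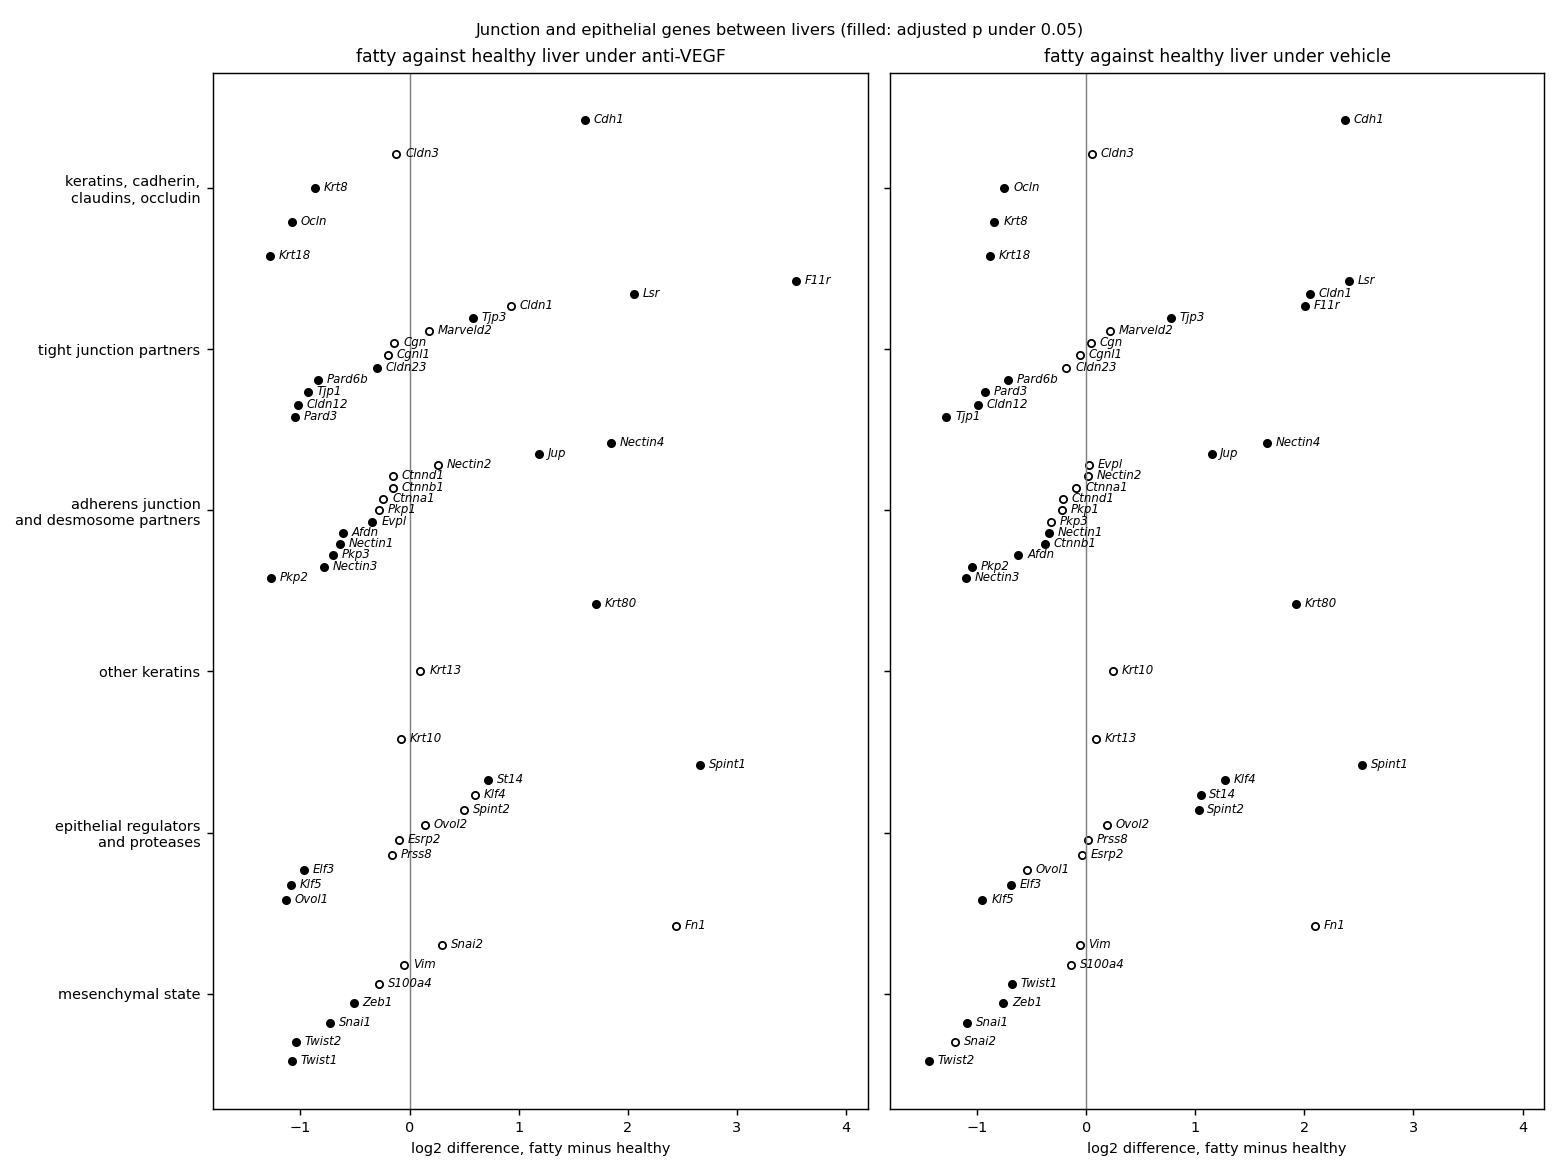
Log2 difference, fatty minus healthy liver, of every tested gene of 6 lists under Anti-VEGF (left) and under vehicle (right), filled where the adjusted p was under 0.05. Junction genes lie on both sides of 0 under each treatment, with Lsr, Nectin4, Krt80 and Spint1 to the right beside Cdh1 and Cldn12, Pkp2, Nectin3 and Klf5 to the left beside the keratins and Ocln.

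At adherens junctions and desmosomes, 13 of 17 listed genes were tested. Under Anti-VEGF 2 rose and 6 fell (median -0.28), and under vehicle 2 rose and 5 fell (median -0.22). Of all tested genes 45.8% and 49.6% passed in either direction. The 2 that rose were the same in both comparisons: Jup, or plakoglobin, which links cadherins to the filaments (1.19, SE 0.22, and 1.15, SE 0.22), and the adhesion molecule Nectin4 (1.85, SE 0.19, and 1.66, SE 0.19). Nectin1 fell by 0.64 (SE 0.09) and 0.34 (SE 0.09) and Nectin3 by 0.78 (SE 0.19) and 1.10 (SE 0.19). Without Anti-VEGF array 3 of fatty liver 10 of the 13 fell under Anti-VEGF.

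Among 12 other keratins 3 were tested and 1 changed. Krt80, an epithelial keratin, rose by 1.71 (SE 0.22, limma adjusted p = 0.000279) under Anti-VEGF and by 1.92 (SE 0.22, adjusted p = 0.00022) under vehicle, from a healthy liver level well above the limit. Its 6 fatty liver arrays, at 7.55 to 8.73, did not overlap the 6 healthy liver arrays, at 6.45 or less, as 14.3% of all tested genes did in that direction. With nearly alike arrays averaged the adjusted p under Anti-VEGF was 0.0533. Krt20, a keratin of intestinal epithelium, was at most 4.38.

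Of 18 epithelial regulators and proteases 10 were tested. Under Anti-VEGF 2 rose and 3 fell (median 0.02), and under vehicle 4 rose and 2 fell (median 0.10). Of all tested genes 45.8% and 49.6% passed in either direction, so calls were as usual here as elsewhere. Klf5, a transcription factor of intestinal crypts, fell by 1.09 (SE 0.15) and 0.95 (SE 0.15) and the epithelial factor Elf3 by 0.97 (SE 0.20) and 0.69 (SE 0.20). Elf3 was tested through healthy liver, at 5.25 to 5.84, while its fatty liver arrays, at 4.39 to 5.16, lay about the limit, so the size of its fall is uncertain. Its call under vehicle was lost without vehicle array 1 or 3 of healthy liver or 2 or 3 of fatty liver. Spint1, an inhibitor of membrane serine proteases, rose by 2.66 (SE 0.48) and 2.53 (SE 0.48), and Spint2 passed under vehicle only (1.03, SE 0.22), with 0.50 (SE 0.22, adjusted p = 0.0808) under Anti-VEGF. The interaction of liver and treatment did not pass for any gene. Under Anti-VEGF 4 rose without array 3 of fatty liver and 1 without Anti-VEGF array 1 or 2 of fatty liver or 1 or 3 of healthy liver. Under vehicle 1 fell without vehicle array 1 or 3 of healthy liver or 2 or 3 of fatty liver.

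Genes of the mesenchymal state, which oppose the epithelial one in epithelial-mesenchymal transition, were lower in fatty liver or did not pass. Of 10 listed genes 8 were tested. In each comparison 0 of them rose and 4 fell, beside 27.6% and 30.4% of all tested genes lower. The list medians were -0.39 under Anti-VEGF and -0.72 under vehicle. At an unadjusted p of 0.05 the number that rose was 1 under Anti-VEGF and 0 under vehicle. The repressor Snai1 fell by 0.73 (SE 0.15) and 1.09 (SE 0.15), Twist1 by 1.08 (SE 0.18) and 0.68 (SE 0.18), Twist2 by 1.04 (SE 0.24) and 1.44 (SE 0.24) and Zeb1, a repressor of Cdh1, by 0.51 (SE 0.15) and 0.76 (SE 0.15). The Zeb1 call under Anti-VEGF was lost without any 1 of the 3 healthy liver arrays or without fatty liver array 1 or 2 of that treatment. Vim differed by -0.05 (SE 0.06) and -0.06 (SE 0.06). With its 2 rows averaged the difference under vehicle turned to 0.22 (limma adjusted p = 0.0512). Fn1, which encodes fibronectin and was named after its values were seen, had the largest difference of the list and did not pass (2.44, SE 1.02, limma adjusted p = 0.0723, and 2.10, SE 1.02, adjusted p = 0.11). It read 11.25, 10.60 and 9.16 in fatty liver under Anti-VEGF, against 7.90, 7.91 and 7.88 in healthy liver, and 10.49, 11.68 and 10.53 in fatty liver under vehicle, against 7.46, 11.75 and 7.20 in healthy liver. Without vehicle array 2 of healthy liver, an array rich in stromal transcripts, it was higher by 2.44 (adjusted p = 0.00281) and 3.57 (adjusted p = 0.000675), and under Anti-VEGF it also passed without array 3 of fatty liver (3.03, adjusted p = 0.0435). Without the 4 arrays high in Xist it was 2.44 (adjusted p = 0.0108) under Anti-VEGF. Under vehicle it was then -0.07, with array 2 alone in each liver. With nearly alike arrays averaged, at most 1 gene of each of these 4 lists (tight junction, adherens junction and desmosome, regulators, mesenchymal) passed in either comparison. Without the 4 arrays high in Xist, array 2 is alone in each vehicle group. The medians of these lists under vehicle, in the same order, were then 0.20, -0.40, 0.14 and -0.97.

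Markers of other cells that carry these keratins were looked at in the same way. Among hepatocyte genes, Alb was at most 4.07, under the limit on every array, 2 of 10 listed genes were tested and the list mean was 4.28 to 4.48 in fatty liver and 4.29 to 4.43 in healthy liver. Of the 2 tested, 1 fell under Anti-VEGF and 0 under vehicle. Of 9 bile duct genes 7 had a row and 2 were tested, Sox9 and Aqp1, with list means of 5.46 to 5.73 against 5.82 to 5.88. Sox9, also a factor of intestinal progenitors, differed by -0.86 (SE 0.31, limma adjusted p = 0.0427) under Anti-VEGF and -1.11 (SE 0.31, adjusted p = 0.0136) under vehicle, and Aqp1, a water channel, by -0.66 (SE 0.19, adjusted p = 0.0179) and -1.20 (SE 0.19, adjusted p = 0.000937), whereas Krt7, Krt19, Cftr, Sctr, Muc1, Onecut1 and Anxa13 were near or below the limit. Of 7 mesothelial genes 2 were tested. Msln, a surface protein of mesothelium and of some carcinomas, fell by 1.20 (SE 0.37) and 1.17 (SE 0.37), Wt1 did not pass, and the list mean was 4.48 to 4.57 in fatty liver against 4.55 to 4.81 in healthy liver. Of 4 tested cell cycle genes 2 fell under Anti-VEGF and 3 under vehicle. Cdc20 and Rrm2 fell under both, by 0.74 (SE 0.20) and 1.02 (SE 0.20) and by 0.48 (SE 0.15) and 0.85 (SE 0.15), and Top2a under vehicle only. Mki67 did not pass (0.12, SE 0.17, and -0.39, SE 0.17). Under vehicle it passed from its 6 arrays alone (limma adjusted p = 0.0381), with array weights, and without Anti-VEGF array 1 or 3 of fatty liver. Of all tested genes 27.6% fell under Anti-VEGF, 30.4% under vehicle and 21.9% under both, which applies to the bile duct and mesothelial calls too. With nearly alike arrays averaged, none of the Sox9, Aqp1, Msln, Cdc20 and Rrm2 calls held, with limma adjusted p-values of 0.263 to 0.356 under Anti-VEGF and 0.056 to 0.175 under vehicle. Under Anti-VEGF the 2 bile duct calls were both lost without array 1 or 2 of fatty liver or array 3 of healthy liver, and Sox9, Msln and Rrm2 each lost theirs without array 1 or 2 of fatty liver or array 1 or 2 of healthy liver. The Sox9 and Rrm2 calls under Anti-VEGF were also lost with arrays centred on their medians and from the 6 arrays alone. Sox9 further lost its call without the filter (limma adjusted p = 0.0581) and without vehicle array 1 or 3 of either liver. With its rows averaged Rrm2 differed by -0.24 (limma adjusted p = 0.0882). Under vehicle Msln was lost without array 1 or 3 of healthy liver or 2 of fatty liver, and Sox9 without array 3 of healthy liver or 2 of fatty liver. The part of tumour cell share in any of these differences was not tested.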

How the data were processed

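RNA of 12 mouse tumour samples was measured on single-colour Affymetrix whole-transcript arrays. Values are log2 expression, taken as the authors deposited them. Affymetrix Expression Console is the tool listed in the submitters' processing notes. How it normalized the arrays, and any genome build, is not stated in those notes, and the log2 scale was inferred from the range of the values. Array medians ran from 4.88 to 4.99. Without detection calls, a limit on low values stood in for them, and precision rests on the number of arrays.

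Platform annotation gave 1 symbol for 23521 of 41345 rows, and 23328 of these matched RefSeq by gene number. Of 22180 genes 13286 were tested in 1 limma model (version 3.58.1, R 4.3.3) with a mean per group, 8 residual degrees of freedom and a Benjamini-Hochberg adjusted p of 0.05 over all tested genes. The fit was tested on simulated data. Members, lists and alternatives were chosen with earlier results of these data known. The text names the members, up to 4 genes per list by the F test over groups and the 3 genes most correlated with each tested member. Beside these it names Vim, Alb, Xist and, chosen after their values were seen, Cldn1, F11r, Fn1, Pkp2, Ncr1, Gzma and marker genes under the limit. Same-numbered vehicle arrays of the 2 livers deviated together (r of 0.536, 0.701 and 0.549), but arrays 1 and 3 did so across numbers too (0.574 and 0.553), so the values set array 2 apart and do not single out pairs by number.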

Additional observations from a re-analysis of the deposited data

How the results depend on the processing

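Between livers the directions of Krt8, Krt18, Ocln and Cdh1 held under every alternative run. The count of all genes past the threshold moved most. With nearly alike arrays averaged it was 510 under Anti-VEGF and 721 under vehicle (6084 and 6595 as reported). Array weights gave 9884 under Anti-VEGF between livers, 1848 for treatment in fatty liver, 1661 for treatment in healthy liver and 1477 for the interaction, against 1, 0 and 0 for the last 3. The weight was 0.147 and 0.243 on vehicle array 2 of healthy and fatty liver and 0.197 and 0.137 on Anti-VEGF arrays 1 and 3 of fatty liver. It was 1.276 or more on the other arrays, among them all the nearly alike ones. Under these weights Krt8 (0.29, adjusted p = 0.0306) and Ocln (0.26, adjusted p = 0.0324) passed for treatment in healthy liver and Ocln for the interaction (-0.39, adjusted p = 0.0347). Without the vehicle arrays high in Xist the counts were 1057 between livers under vehicle, 754 for treatment in healthy liver, where Krt18 (0.82) and Ocln (0.59) passed, and 19 for the interaction, the lone vehicle arrays being assumed to vary like the other groups. Treatment in healthy liver gave 2 genes with the stricter filter, 7 with arrays centred and 47 from its 6 arrays alone. Leaving out 1 array gave 0 to 11, 0 to 41, 4274 to 7475, 4689 to 7337 and 0 to 0 genes for treatment in fatty and healthy liver, liver under Anti-VEGF and under vehicle, and the interaction. The cause was not tested.

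Signs turned only for differences that did not pass. Krt18 for treatment in fatty liver was 0.00 with a gene's rows averaged, 0.10 with alike arrays averaged and 0.49 without the arrays high in Xist. With array weights Ocln was -0.13 for treatment in fatty liver and Cdh1 0.00 in healthy liver. Cldn3 under vehicle was -0.01 with alike arrays averaged and -0.19 without the arrays high in Xist, where its interaction was 0.07, and Krt8 had an interaction of 0.02 and 0.18 in these fits. Leaving out 1 array gave -0.28 to 0.11 for Krt18, -0.08 to 0.14 for Cldn3 and -0.09 to 0.11 for Ocln for treatment in fatty liver, and -0.34 to 0.04 for Cdh1 in healthy liver. Cldn3 between livers ran from -0.20 to 0.02 and from -0.06 to 0.13, and the Krt8 interaction from -0.25 to 0.10. In the fit with a replicate block, the counts between livers were 6671 under vehicle and 6259 under Anti-VEGF, and no call of the 5 tested genes changed. Quantile normalization, centred arrays, either other filter and averaged rows changed no call of theirs either. Fitted from only the 6 arrays compared, Cdh1 between livers under Anti-VEGF missed the threshold.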
